A study of Mus musculus with 18 samples.

Results

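Replication-dependent histone genes supply the core histones H2A, H2B, H3 and H4 for new chromatin, and their messengers were followed here in injected mouse muscle. The members were all genes whose symbol in the platform's annotation begins with H2ac, H2bc, H3c, H4c or the older Hist1 to Hist4. The platform held 50 such genes on 78 probes, 41 on chromosome 13 and 9 on chromosome 3. Beyond the name, members were selected on the measured detection p, which had to lie under 0.05 for a probe on 3 or more arrays. This left 57 probes and 39 genes among the 11233 genes tested. The kept genes were 13 of 16 H2A, 9 of 13 H2B, 8 of 9 H3 and 9 of 12 H4 genes. The 11 genes not kept were H2ac4, H2ac6, H2ac8, H2bc1, H2bc3, H2bc8, H2bc18, H3c3, H4c2, H4c3 and H4c14, each detected on 0 to 2 arrays. Just inside the limit lay H2ac1 on 4 arrays, H3c8 on 5, H4c4 on 7 and H2ac11 on 8.

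The tibialis anterior, a muscle of the front lower leg, was taken from 2-month-old mice after 3 injections in 10 days, with 3 days of recovery between them. By their labels, A/J-MyD88 deficient mice are deficient for both dysferlin and MyD88, A/J mice are dysferlin deficient, and A/JOlaHsd mice are wild type and dysferlin sufficient. In each strain the muscle of a leg received ssRNA (single-stranded RNA) and that of the opposite leg saline, so each control leg belongs to an animal that also received ssRNA. RNA was read on Illumina bead arrays, with 3 arrays for each strain and injection, except that 2 were used for A/JOlaHsd ssRNA legs. Dysferlin helps muscle fibres to reseal their membrane, MyD88 is the adaptor of most Toll-like receptors, and ssRNA is a ligand of Toll-like receptors in endosomes. The labels do not say whether the arrays of a group came from separate animals, so the spread between them may be technical.

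As background, replication-dependent histone genes are transcribed mainly in S phase, when a dividing cell needs histones to package newly copied DNA. Their messengers end in a stem-loop bound by SLBP instead of a poly(A) tail, although some copies can also give polyadenylated messengers, for example in differentiated cells. Labelling that starts from a poly(A) tail therefore reads mostly the polyadenylated form. Mature muscle fibres do not divide, and dividing cells in injured muscle include satellite cells, fibroblasts and immune cells. Genes of these families are near-identical copies in clusters. The probe sequences were not used here, so a probe may read several copies.

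Many H2A and H2B genes lie head to head and share the DNA between their starts. The windows of 5 H2A genes are shown, the 4 whose H2B partner was also measured and H2ac18, which moved in the opposite direction. The sequences are from RefSeq (GRCm38.p6), run 5′ to 3′ on the gene's strand and cover 250 bases before to 50 bases after the annotated start. Capitals mark the TATA box letters TATAAA, the CCAAT box letters CCAAT and the octamer ATTTGCAT, on either strand. H2ac7 lies at chr13:23574131-23574430 (plus strand), H2ac11 at chr13:22042900-22043199 (minus strand), H2ac12 at chr13:22035594-22035893 (minus strand), H2ac15 at chr13:21753863-21754162 (minus strand) and H2ac18 at chr3:96245247-96245546 (plus strand).
H2ac7: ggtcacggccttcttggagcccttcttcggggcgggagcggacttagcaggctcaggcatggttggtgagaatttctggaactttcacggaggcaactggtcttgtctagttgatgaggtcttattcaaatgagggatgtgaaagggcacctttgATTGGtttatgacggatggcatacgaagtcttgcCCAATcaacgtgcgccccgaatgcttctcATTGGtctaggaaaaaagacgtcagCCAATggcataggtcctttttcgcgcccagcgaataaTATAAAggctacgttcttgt
H2ac11: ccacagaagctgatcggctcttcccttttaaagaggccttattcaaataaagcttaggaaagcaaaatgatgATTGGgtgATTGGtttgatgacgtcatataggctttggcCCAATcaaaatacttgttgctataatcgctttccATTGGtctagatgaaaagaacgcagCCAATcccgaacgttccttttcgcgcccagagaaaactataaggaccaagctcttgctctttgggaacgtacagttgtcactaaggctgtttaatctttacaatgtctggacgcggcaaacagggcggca
H2ac12: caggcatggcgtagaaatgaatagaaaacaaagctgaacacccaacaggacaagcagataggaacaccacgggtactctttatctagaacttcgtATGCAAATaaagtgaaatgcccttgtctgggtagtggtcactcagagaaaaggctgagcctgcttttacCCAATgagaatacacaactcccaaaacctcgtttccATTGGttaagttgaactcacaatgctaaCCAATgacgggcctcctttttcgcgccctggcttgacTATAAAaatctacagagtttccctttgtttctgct
H2ac15: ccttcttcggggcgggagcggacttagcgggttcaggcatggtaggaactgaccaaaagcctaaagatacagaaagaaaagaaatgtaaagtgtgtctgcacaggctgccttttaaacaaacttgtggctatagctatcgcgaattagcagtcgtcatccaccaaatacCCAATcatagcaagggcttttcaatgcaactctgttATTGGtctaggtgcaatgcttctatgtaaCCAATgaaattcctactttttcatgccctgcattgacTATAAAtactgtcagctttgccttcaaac
H2ac18: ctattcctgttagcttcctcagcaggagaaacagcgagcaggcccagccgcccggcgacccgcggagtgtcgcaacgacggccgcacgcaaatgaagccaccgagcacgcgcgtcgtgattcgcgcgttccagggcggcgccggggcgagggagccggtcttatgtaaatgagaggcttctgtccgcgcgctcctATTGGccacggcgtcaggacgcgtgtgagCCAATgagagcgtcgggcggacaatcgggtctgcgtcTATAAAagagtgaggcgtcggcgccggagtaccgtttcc
The CCAAT letters, which the factor NF-Y can bind, were in all 5 windows. The TATAAA letters were in all of them except that of H2ac11, and began after the annotated start, 30 bases after it in H2ac7, 15 in H2ac12, 21 in H2ac15 and 11 in H2ac18.

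A window was found for 45 of the 50 genes, in 46 windows. The CCAAT letters stood in 38 of the 46 (82.6%), against 37.4% of all 32851 windows of the same length, and were in all 16 H2A, 12 H2B and 7 H3 windows but in 3 of 11 H4 windows. TATAAA stood in 27 of the 46 (58.7%), against 13.6% of all windows. Windows of head-to-head genes overlap and both strands were searched, so a single site can count in the windows of both genes. This held for the TATAAA letters and the octamer of H2ac12 and H2bc12, among others. The octamer, known as a binding site of Oct-1 in H2B promoters, stood in 7 of 12 H2B and 6 of 16 H2A windows and in 0 of the H3 and H4 windows, against 1.74% of all windows. All 9 H2A genes that were higher in A/J legs given ssRNA held CCAAT, as did the 7 other H2A windows. These matches describe letters in a window and do not show that a factor was bound.

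The tissue and strain labels were checked in the same values. The mean log2 intensity of 5 muscle fibre markers lay between 12.39 and 13.28 on every array used. It was lower on A/JOlaHsd arrays (12.39 to 12.69) than on those of the other strains (12.84 to 13.28). Among these markers, Myh4 averaged 12.41 in A/J and 10.28 in A/JOlaHsd saline legs (limma, adjusted p = 5.58e-05). Dysf, the dysferlin gene, averaged 6.15 ± 0.26 in A/J-MyD88 deficient and 6.13 ± 0.08 in A/J saline legs, against 9.60 ± 0.16 in A/JOlaHsd saline legs (SD, n = 3 each). Myd88 averaged 7.60 ± 0.27 in A/J-MyD88 deficient saline legs and 6.88 ± 0.18 in A/J saline legs (SD, n = 3 each), and the position of its probe relative to the deficiency is not stated in the labels, so it does not test the loss of MyD88. Array 2 of the A/JOlaHsd ssRNA legs carried no muscle signal (mean signal -0.333, 3.71% of probes detected) and was left out. With it kept in the fit, limma called 5 histone genes in place of 12 between A/J legs, 4 in place of 11 for the A/J-MyD88 deficient response minus that of A/J, 0 in place of 9 for the A/J response minus that of A/JOlaHsd and 0 in place of 1 between A/JOlaHsd legs. Calls over all genes fell too, to 207 higher and 13 lower in place of 1394 and 1124 between A/J legs, to 0 and 25 in place of 375 and 769 for the A/J-MyD88 deficient response minus that of A/J, to 5 and 0 in place of 554 and 296 for the A/J response minus that of A/JOlaHsd and to 5 and 23 in place of 103 and 110 between A/JOlaHsd legs. The other A/JOlaHsd arrays were dimmer, with mean signals of 37.4 to 50.2, than those of A/J-MyD88 deficient (98.1 to 140) and A/J (121 to 147). Signal level and strain therefore cannot be told apart where A/J is set against A/JOlaHsd.

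In A/J muscle, H2A genes were higher after ssRNA than after saline, while no H2B gene passed the test. Of 13 H2A genes tested, 9 rose and 1 fell, against 0 and 0 of 9 H2B, 1 and 0 of 8 H3 and 0 and 1 of 9 H4 genes. In all 12 of the 39 genes were called, and 22.4% of all genes tested were called in this comparison (12.4% higher and 10.0% lower). The median log2 fold change was 1.25 over the H2A genes, -0.38 over H2B, 0 over H3 and -0.28 over H4 genes, beside -0.05 over all genes tested. Calls are adjusted p under 0.05 from limma, with Benjamini-Hochberg adjustment over all genes tested. Errors of fold changes are standard errors of that fit, which did not pair the legs.

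The largest increases were in H2A genes of the chromosome 13 cluster, each of which encodes a canonical H2A protein that pairs with H2B in the nucleosome. H2ac12 had log2 intensities of 8.67, 7.79 and 8.06 in A/J ssRNA legs, against 5.49, 5.16 and 4.85 in A/J saline legs, a log2 fold change of 3.01 ± 0.32 (limma, adjusted p = 1.11e-05). H2ac15 had 8.89, 8.23 and 8.27 in ssRNA legs, against 5.84, 5.56 and 5.05 in saline legs (2.98 ± 0.43, adjusted p = 0.00013). The lowest ssRNA array of both genes lay more than 2 log2 units above the highest saline array. H2ac22 had 9.22, 8.81 and 8.81 in ssRNA legs, against 6.53, 6.57 and 5.32 in saline legs (2.81 ± 0.38, adjusted p = 8.14e-05). H2ac24 had 11.08, 10.69 and 10.54 in ssRNA legs, against 8.26, 8.18 and 7.85 in saline legs (2.67 ± 0.30, adjusted p = 1.82e-05). H2ac7 had 10.77, 10.38 and 10.38 in ssRNA legs, against 8.11, 7.91 and 7.51 in saline legs (2.67 ± 0.31, adjusted p = 2.1e-05). In these 5 genes the ssRNA and saline arrays did not overlap. Over all genes tested, the ssRNA arrays all lay above the saline arrays in 20.6% and all below them in 24.1%.

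The other 4 H2A genes that rose did so by less on the probe that stood for the gene. H2ac11 had log2 intensities of 6.01, 5.84 and 5.93 in A/J ssRNA legs, against 4.41, 4.26 and 4.31 in A/J saline legs, where it was not well above background on any array. It was at least 2.6-fold higher in ssRNA legs (adjusted p = 8.99e-05), counting background arrays at the lowest detected signal. H2ac11 passed the detection limit through A/J ssRNA and A/J-MyD88 deficient arrays, so its difference from A/J saline legs partly follows from how the members were chosen. Without it, 8 of 12 H2A genes rose. H2ac20, in the chromosome 3 cluster, had 10.99, 10.69 and 10.61 in ssRNA legs, against 9.67, 9.42 and 9.45 in saline legs (1.25 ± 0.20, adjusted p = 0.000291). H2ac13 had 10.83, 10.74 and 10.65 in ssRNA legs, against 9.87, 9.71 and 9.77 in saline legs (0.96 ± 0.18, adjusted p = 0.00139). H2ac10 had 11.03, 10.63 and 10.72 in ssRNA legs, against 10.06, 9.73 and 10.06 in saline legs (0.85 ± 0.18, adjusted p = 0.00279). None of these 4 genes overlapped between the legs.

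By position, 8 of the 9 H2A genes tested on chromosome 13 and 1 of the 4 on chromosome 3 rose in A/J. A probe may read several copies, so these counts may not be of separately measured genes. They include H2ac11, near the detection limit, and H2ac20, whose second probe was not called. The remaining gene on chromosome 13 was H2ac1, known as a testis-specific H2A, which lay near background (-0.21 ± 0.20, adjusted p = 0.5). On chromosome 3, H2ac18 fell. It had log2 intensities of 9.27, 9.40 and 9.15 in ssRNA legs, against 9.73, 9.80 and 9.90 in saline legs (-0.54 ± 0.13, adjusted p = 0.0079), with no overlap. With median centring of each array in place of quantile normalization, which moved the median of all genes to 0.10, H2ac18 was at -0.40 and no longer called (adjusted p = 0.0767). H2ac19 and H2ac21 differed by -0.16 ± 0.19 and 0.30 ± 0.25 (adjusted p = 0.603 and 0.424).

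**Figure D1:**
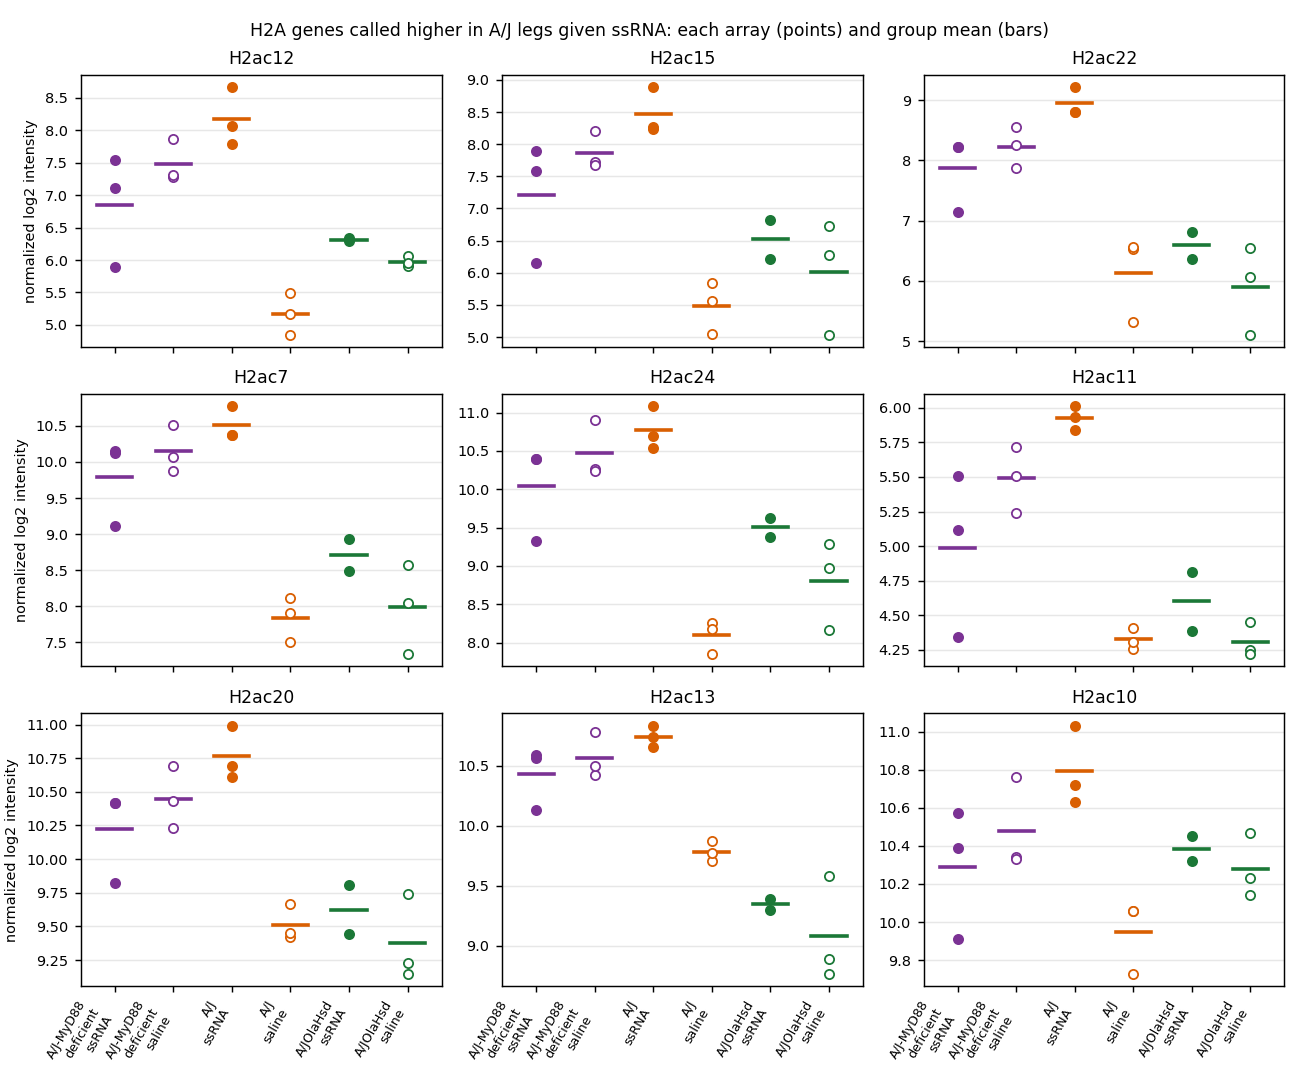
Normalized log2 intensity (vertical axes, each with its own range) of the 9 H2A genes called higher in A/J legs given ssRNA, in the 6 groups of strain and injection. Filled points are ssRNA arrays, open points saline arrays and bars group means. A/J saline legs lie below A/J ssRNA legs in every panel, A/J-MyD88 deficient saline legs lie above A/J saline legs, and A/J-MyD88 deficient ssRNA array 2 is the lowest of its group in all 9 genes.

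Several H2A genes were read by more than 1 probe, and the probes did not always give the same size of change. The second probe of H2ac10 had log2 intensities of 9.76, 9.43 and 9.32 in A/J ssRNA legs, against 6.93, 6.96 and 5.96 in A/J saline legs. Its log2 fold change was 2.89 ± 0.33 (limma over 20825 probes, adjusted p = 3.5e-05), beside 0.85 on the probe that stood for the gene. The second probe of H2ac13 likewise gave 2.85 ± 0.31 (adjusted p = 2.34e-05), beside 0.96 on the other probe. Second probes of H2ac12 and H2ac7 gave 3.33 ± 0.36 and 3.31 ± 0.35 (adjusted p = 2.02e-05 and 1.73e-05). In these 4 genes the second probes lay between 2.85 and 3.33, while the probes that stood for the genes lay between 0.85 and 3.01.

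H2ac20 was the exception. Its second probe had 6.32, 6.40 and 6.71 in ssRNA legs, against 6.49, 6.67 and 6.59 in saline legs (-0.11 ± 0.32, adjusted p = 0.876), so the gene's increase rested on 1 of 2 probes. The other probes of H2ac18 gave -0.41 and -0.21 and did not pass the test (adjusted p = 0.181 and 0.208). Over all probes kept, 9.79% were called higher and 8.09% lower.

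**Figure D2:**
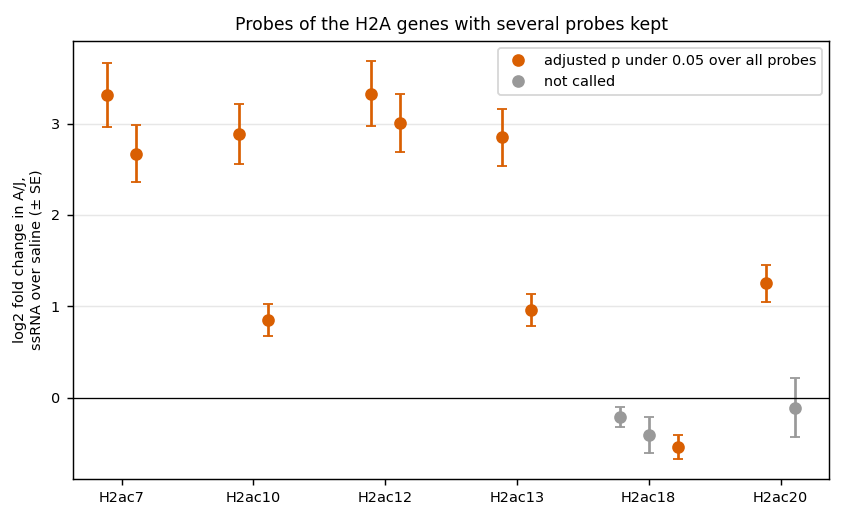
Log2 fold change in A/J, ssRNA over saline, with its standard error (vertical axis) for each kept probe of the 6 H2A genes with several probes (horizontal axis). The probes of H2ac10 stand at 2.89 and 0.85, those of H2ac13 at 2.85 and 0.96, and 1 of the 2 H2ac20 probes lies near 0.

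The H2B genes, which encode the partner of H2A in the nucleosome, gave 0 calls among 9 in A/J by limma, and 0 had an unadjusted p under 0.05. Their log2 fold changes ran between -0.48 ± 0.25 in H2bc7 and 0.12 ± 0.19 in H2bc4. Of the 9 genes, 8 had a negative value, with a median of -0.38 beside -0.05 over all genes tested. A further probe of H2bc6 was called lower in the test over all probes (-0.49 ± 0.14, adjusted p = 0.0189). With median centring the H2B median was -0.14, where that of all genes was 0.10, and again no H2B gene was called.

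Neighbouring H2A and H2B genes that share a promoter region were set side by side. The annotation held 9 head-to-head pairs with starts under 1000 bases apart, and both genes were tested in 4. H2ac12 and H2bc12, with starts 178 bases apart, had log2 fold changes in A/J of 3.01 ± 0.32 and -0.24 ± 0.18 (adjusted p = 1.11e-05 and 0.367). H2ac15 and H2bc15, 164 bases apart, had 2.98 ± 0.43 and -0.24 ± 0.23 (adjusted p = 0.00013 and 0.499). In both pairs the H2A gene was called and its neighbour was not. H2ac7 and H2bc7, 174 bases apart, had 2.67 ± 0.31 and -0.48 ± 0.25 (adjusted p = 2.1e-05 and 0.185). H2ac11 and H2bc11, 249 bases apart, had 1.60 ± 0.22 and -0.38 ± 0.19 (adjusted p = 8.99e-05 and 0.162), where the first value has a saline group at background. The difference within a pair was not tested, and each gene was read by probes that may differ in the copies they bind.

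**Figure D3:**
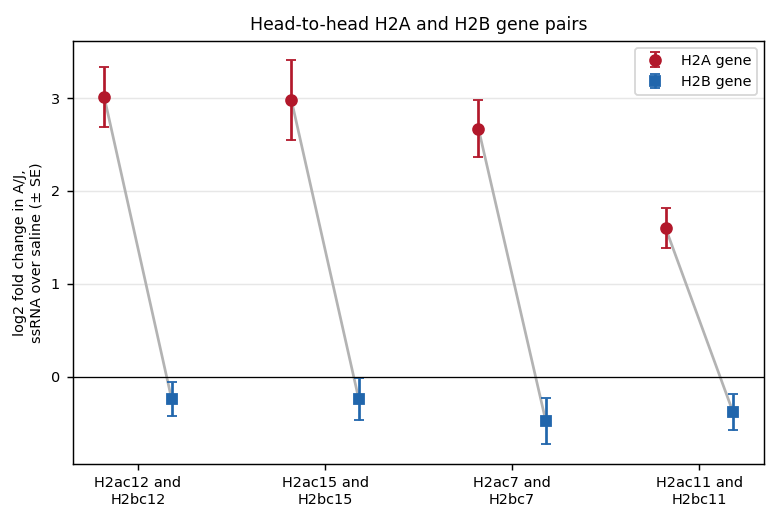
Log2 fold change in A/J, ssRNA over saline, with its standard error (vertical axis) for the 4 head-to-head pairs with both genes tested. Each H2A gene (circles) lies between 1.60 and 3.01, and each H2B gene (squares) between -0.48 and -0.24.

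Among the H3 genes, H3c13 rose in A/J. It had log2 intensities of 8.41, 8.28 and 8.53 in ssRNA legs, against 8.01, 7.60 and 7.68 in saline legs (0.64 ± 0.15, adjusted p = 0.00574), without overlap. H3c14, which lies in the same chromosome 3 cluster, was at 0.61 ± 0.24 and did not pass the test (adjusted p = 0.0848). The other 6 H3 genes lay between -0.23 and 0.31. Among the H4 genes, which encode the partner of H3, H4c11 fell. It had 7.54, 7.70 and 7.88 in ssRNA legs, against 8.48, 8.34 and 8.72 in saline legs (-0.81 ± 0.18, adjusted p = 0.00455), again without overlap. The other 8 H4 genes lay between -0.45 and -0.02, below 0 in every case, and H4c1 had the largest of these values (-0.45 ± 0.20, adjusted p = 0.125).

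**Figure D4:**
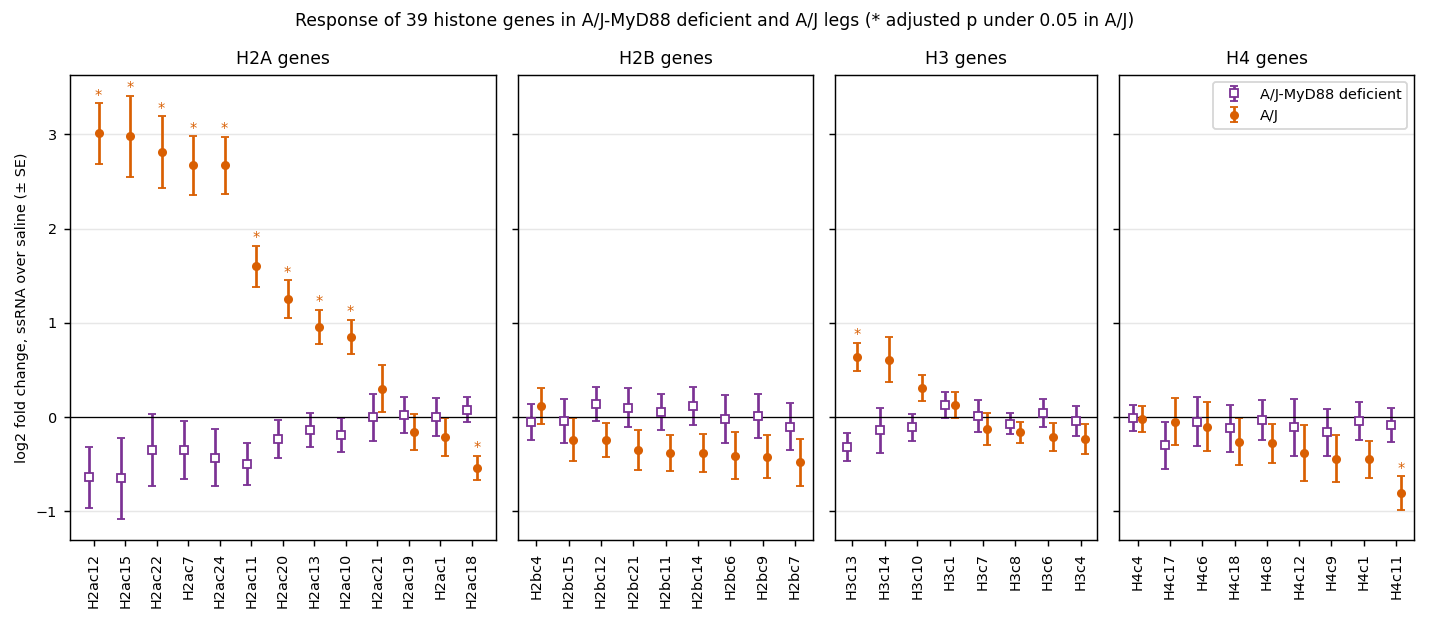
Log2 fold change, ssRNA over saline, with its standard error (vertical axis) for the 39 genes by class, in A/J-MyD88 deficient (open squares) and A/J (circles). Stars mark adjusted p under 0.05 in A/J. H2A genes reach 3.01 in A/J, where H2B genes lie between -0.48 and 0.12, and all A/J-MyD88 deficient values lie between -0.65 and 0.14.

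Genes that work with replication-dependent histones were read from other lists. Of 30 DNA replication genes tested, 14 rose and 1 fell in A/J, beside 12.4% higher and 10.0% lower of all genes tested. Their median log2 fold change was 0.37 beside -0.05 over all genes. Uhrf1, which couples DNA methylation to replication, was at 7.01 in A/J ssRNA legs and 4.72 in A/J saline legs (2.29 ± 0.37, adjusted p = 0.000359). Mcm5 and Mcm6, subunits of the replicative helicase, rose by 1.50 ± 0.16 and 1.30 ± 0.28, and Cdt1, which loads it, by 1.42 ± 0.18 (adjusted p = 9.13e-06, 0.003 and 4.28e-05). Pola2, a subunit of DNA polymerase alpha, fell by 0.50 on the log2 scale (adjusted p = 0.0124), and was named after its value was seen.

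The next 3 lists stand beside the same shares in A/J, 12.4% of all genes tested called higher and 10.0% lower. Of 9 variant histone genes, whose messengers are mostly polyadenylated, 3 rose and 0 fell in A/J (median 0.35). They were Cenpa, the centromeric H3 (2.00 ± 0.23, adjusted p = 2.13e-05), H3f3b, a gene of the replacement histone H3.3 (0.73 ± 0.19, adjusted p = 0.0123), and H2az1, an H2A variant (0.69 ± 0.19, adjusted p = 0.0155). Of 15 genes of histone messenger processing and transcription, 3 rose and 0 fell (median 0.10), close to the share of all genes called in A/J (22.4%). They were E2f1, a transcription factor of S phase entry (1.37 ± 0.23, adjusted p = 0.000441), Lsm10, of the U7 particle that trims histone messengers (0.63 ± 0.16, adjusted p = 0.00878), and Cstf2, a 3′ end processing factor (0.52 ± 0.18, adjusted p = 0.0487). Npat, the coactivator of histone gene transcription, was at -0.04 ± 0.13 (adjusted p = 0.865), and was also named after its value was seen. Of 13 chaperone and assembly genes, 3 rose and 1 fell (median 0.09). Nap1l1, a chaperone of H2A and H2B, rose by 0.92 ± 0.17, Nasp, a chaperone of H3 and H4, by 0.83 ± 0.25 and Chaf1b, a subunit of CAF-1, by 0.60 ± 0.13, while Ipo4, an importin that carries histones, fell by 0.53 on the log2 scale (adjusted p = 0.000929, 0.0282, 0.00425 and 0.0258).

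Markers of infiltrating and connective tissue cells moved with the H2A genes in A/J. Of 5 macrophage markers, 4 rose (median 2.28), and their mean log2 intensity lay between 7.80 and 8.12 on ssRNA arrays, against 5.61 to 6.12 on saline arrays, where Itgam was not above background. All 4 T and NK cell markers rose, with means of 5.62 to 5.85 on ssRNA arrays and 4.25 to 4.49 on saline arrays, where Cd3e, Cd3g and Nkg7 were not above background. Both neutrophil markers and 3 of 4 fibroblast markers rose, and 0 of 5 muscle fibre, 0 of 3 endothelial, 0 of 2 erythroid and 0 of 1 B cell markers changed. In whole muscle, more cells of a type and more RNA per cell cannot be told apart. The part of these cells in the histone values was not tested.

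In A/J-MyD88 deficient mice, limma called 0 of the 39 histone genes between legs and 0 of 11233 genes in all (0%). At an unadjusted p under 0.05 lay 2 histone genes and 131 genes in all. The H2A values ran between -0.65 and 0.08, with a median of -0.23 beside 0.01 over all genes. The largest was that of H2ac15, which had log2 intensities of 7.89, 6.15 and 7.58 in ssRNA legs, against 7.72, 8.20 and 7.67 in saline legs (-0.65 ± 0.43, adjusted p = 1). These arrays overlapped, and ssRNA array 2 stood apart from the other ssRNA arrays. That array was the lowest of its group for all 9 H2A genes that rose in A/J, and saline array 2 was the highest of its group for all 9. The second probes of H2ac7, H2ac10, H2ac12 and H2ac13 were at -0.65, -0.44, -0.67 and -0.27, with adjusted p = 1 each.

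The difference between the 2 strains' responses was tested directly, as the A/J-MyD88 deficient response minus the A/J response. It was called in 11 of the 39 genes, 1 higher and 10 lower, beside 10.2% of all genes tested (3.34% higher and 6.85% lower). All 9 H2A genes that rose in A/J were lower, by log2 differences between -1.03 in H2ac10 and -3.65 in H2ac12. These 9 genes were picked by their A/J response, and this comparison subtracts that response on the same A/J arrays. Their lower values therefore partly follow from that choice. The difference of H2ac11 is no exact size, since A/J saline legs were at background. Its call also partly follows from how the members were chosen. For H2ac12 the responses were -0.64 in A/J-MyD88 deficient and 3.01 in A/J, a difference of -3.65 ± 0.46 (limma, adjusted p = 0.000314). H3c13 was also lower (-0.96 ± 0.21, adjusted p = 0.00915), with responses of -0.32 in A/J-MyD88 deficient and 0.64 in A/J. H2ac18 was higher (0.62 ± 0.19, adjusted p = 0.0473), a call that was lost with the replicate number as a block (adjusted p = 0.0526) and without each of 11 of the 12 arrays in turn (adjusted p of 0.0528 to 0.122). Without A/J-MyD88 deficient saline array 2, H2ac10 was at -0.89 and not called (adjusted p = 0.0556). The H2B differences lay between -0.16 and 0.50, and 0 of 9 were called. Among DNA replication genes 8 of 30 were lower and 1 was higher, and among macrophage markers 4 of 5 were lower.

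The strains already differed in saline legs. In A/J-MyD88 deficient against A/J saline legs, 8 of the 13 H2A genes were higher and 0 lower, and no H2B, H3 or H4 gene was called, beside 5.38% of all genes tested (4.39% higher and 0.988% lower). The H2A median was 0.93, against -0.38 over H2B and -0.01 over all genes. H2ac24 had log2 intensities of 10.26, 10.90 and 10.24 in A/J-MyD88 deficient saline legs, against 8.26, 8.18 and 7.85 in A/J saline legs (2.37 ± 0.30, adjusted p = 0.000497). All A/J-MyD88 deficient saline arrays lay about 2 log2 units or more above the A/J saline arrays. H2ac15, H2ac12, H2ac7 and H2ac22 were higher by 2.37, 2.32, 2.31 and 2.08 (adjusted p = 0.00386, 0.000943, 0.000682 and 0.00418). H2ac11 was at least 1.92-fold higher (adjusted p = 0.00518). It passed the detection limit through A/J ssRNA and A/J-MyD88 deficient arrays, so this call too partly follows from how the members were chosen.

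The 2 smallest of these calls depended on single arrays. H2ac20 was higher by 0.93 ± 0.20 (adjusted p = 0.0104), but not called without A/J-MyD88 deficient saline array 2 or A/J saline array 3 (adjusted p = 0.0814 and 0.0575). Its second probe was not higher, with 6.11, 5.94 and 6.28 in A/J-MyD88 deficient saline legs, against 6.49, 6.67 and 6.59 in A/J saline legs. H2ac13 was higher by 0.78 ± 0.18 (adjusted p = 0.0186), but not called without A/J-MyD88 deficient saline array 2, A/J saline array 2 or A/J saline array 3 (adjusted p = 0.132, 0.0578 and 0.0814). H2ac10 was at 0.53 ± 0.18 and not called (adjusted p = 0.107), while its second probe was higher by 2.37 ± 0.33 (adjusted p over all probes = 0.00154). This comparison and the A/J response share the A/J saline arrays. In the same legs, 9 of 30 DNA replication genes and 4 of 5 macrophage markers were higher. The macrophage mean was 7.03 to 7.63 on A/J-MyD88 deficient saline arrays and 5.61 to 6.12 on A/J saline arrays, and its part in the H2A values was not tested.

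In ssRNA legs of A/J-MyD88 deficient against those of A/J, 4 histone genes were lower and 0 higher, beside 5.66% of all genes tested (2.64% higher and 3.02% lower). H2ac12 had 7.54, 5.89 and 7.11 in A/J-MyD88 deficient ssRNA legs, against 8.67, 7.79 and 8.06 in A/J ssRNA legs (-1.33 ± 0.32, adjusted p = 0.0281). The call was lost with no filter on detection and with only the arrays compared (adjusted p = 0.0589 and 0.0611). H2ac11 was at -0.94 ± 0.22 and H3c10 at -0.54 ± 0.14 (adjusted p = 0.0243 and 0.0363). H2ac11 was above background on 2 of 3 A/J-MyD88 deficient ssRNA arrays, so its value is no exact size. It passed the detection limit through A/J ssRNA and A/J-MyD88 deficient arrays. H3c13 had 7.63, 7.43 and 7.33 in A/J-MyD88 deficient ssRNA legs, against 8.41, 8.28 and 8.53 in A/J ssRNA legs (-0.94 ± 0.15, adjusted p = 0.00246). Only the H3c13 call held without each single array. H2ac12, H2ac11 and H3c10 were each lost without A/J-MyD88 deficient ssRNA array 2, A/J ssRNA array 1 or A/J ssRNA array 3 (adjusted p of 0.0789 to 0.163), which left 1 call in place of 4. H3c10 was also lost without A/J-MyD88 deficient ssRNA array 1 or 3 (adjusted p = 0.0505 and 0.111). With median centring, 9 histone genes were lower in place of 4, and over all genes 1158 were lower and 89 higher in place of 339 and 297. In the same legs, 3 of 5 macrophage, all 4 T and NK cell and both neutrophil markers were lower (medians of -0.90, -1.05 and -0.90), and 0 of 30 DNA replication genes were called. The part of these cells in the histone values was not tested.

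In A/JOlaHsd mice, 1 of 39 genes was called between legs, and it was lower, beside 1.90% of all genes tested (0.979% lower). H3c1 had log2 intensities of 4.51 and 4.35 in the 2 ssRNA arrays, against 4.94, 5.08 and 5.33 in saline legs. It was not well above background on either ssRNA array and was at least 1.15-fold lower (adjusted p = 0.0267). The call was lost without ssRNA array 3 (adjusted p = 0.102), with no background correction, with median centring and in the deposited normalized values (adjusted p = 0.052, 0.872 and 1). The largest difference was that of H2ac7, which had 8.49 and 8.93 in ssRNA legs, against 8.58, 7.34 and 8.05 in saline legs (0.72 ± 0.34, adjusted p = 0.362). Its arrays overlapped. The H2A median was 0.27 beside 0 over all genes, and 0 of 13 H2A genes were called. Of 4 T and NK cell markers, 2 rose between these legs. They were Nkg7 (1.58 ± 0.17, limma, adjusted p = 0.000603) and Klrd1 (adjusted p = 0.000654), which was not above background in saline legs. No macrophage, neutrophil or fibroblast marker was called, and of 30 DNA replication genes 0 rose and 1 fell. The part of these cells in the histone values was not tested.

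The A/J response minus the A/JOlaHsd response was called in 9 of 39 genes, 7 higher and 2 lower, beside 7.57% of all genes tested (4.93% higher and 2.64% lower). The A/J response was larger in H2ac12, by 2.68 ± 0.48 (responses of 3.01 in A/J and 0.34 in A/JOlaHsd, adjusted p = 0.00759), and in H2ac15, H2ac22, H2ac24 and H2ac7, by 2.47, 2.12, 1.97 and 1.95 (adjusted p = 0.0306, 0.0351, 0.0188 and 0.0211). The other 2 genes called higher were H2ac11 and H3c1 (adjusted p = 0.0279 and 0.0258). All A/J saline, A/JOlaHsd ssRNA and A/JOlaHsd saline arrays of H2ac11 lay at background, and H3c1 exceeded it on neither A/JOlaHsd ssRNA array, so no size is given for them. The H2ac11 call also partly follows from how the members were chosen. The difference was lower in H2ac18 (-0.79 ± 0.20, adjusted p = 0.0279) and H4c11 (-1.07 ± 0.27, adjusted p = 0.0296). H2ac20 missed the threshold (1.00 ± 0.29, adjusted p = 0.0502). The count fell to 3 without A/JOlaHsd ssRNA array 1, 2 without A/J saline array 3, 3 without A/J ssRNA array 1 and 4 without A/J ssRNA array 3, so it rests on few arrays. This comparison shares the A/J arrays with the A/J response. Higher in it were also 4 of 5 macrophage markers (median 1.79), 1 of 4 fibroblast markers and 7 of 30 DNA replication genes, and their part in the histone values was not tested.

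In saline legs, A/J differed from A/JOlaHsd in 13 histone genes, 9 higher and 4 lower, but 47.2% of all genes tested were called (22.3% higher and 24.9% lower), a larger share than among the histone genes. Of the 9, H3c8 and H4c4 were above background on 0 A/JOlaHsd and 1 A/J saline array each, so no size is given for them. H2ac19, a chromosome 3 H2A gene, had log2 intensities of 9.23, 9.31 and 9.37 in A/J saline legs, against 10.82, 10.79 and 10.31 in A/JOlaHsd saline legs (-1.34 ± 0.19, adjusted p = 4.72e-05). The higher genes were led by H4c12 and H2bc4 (1.11 ± 0.30 and 1.09 ± 0.19, adjusted p = 0.00655 and 0.000218), and H3c6 was lower (-0.78 ± 0.15, adjusted p = 0.000682). The directions depended on the scaling. With median centring, which moved the median of all genes to 0.76, H2ac19 was at -0.03 (adjusted p = 0.923), and 33 histone genes were called higher and 0 lower, as were 7723 and 78 of all 11233 genes. In the main fit of these legs, 3 of 5 macrophage, 1 of 2 neutrophil and both erythroid markers were lower in A/J. Of 5 muscle fibre markers, 2 were higher, and of 30 DNA replication genes 3 were higher and 10 lower. No T and NK cell, B cell, fibroblast or endothelial marker was called. The part of these differences in the histone values was not tested.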

How the data were processed

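RNA of 18 muscles was labelled as biotinylated cRNA, per the labels' protocols, and read with GenomeStudio, per the submitters' processing notes. The deposited intensity of each probe and the deposited detection p-value came from a table without normalization. A second deposited table of intensity values, normalized by the authors within each strain, was an alternative. Values of the first were corrected for background, quantile-normalized over 17 arrays and put on the log2 scale by neqc of limma 3.58.1 in R 4.3.3, with an offset of 16. The detection limit (p under 0.05, 3 or more arrays) left 20825 of 45281 probes. The brightest probe with 1 symbol stood for a gene. Group means were fitted with lmFit and eBayes (11 residual degrees of freedom, 5.01 from the prior), two-sided, adjusted by Benjamini-Hochberg over 11233 genes.

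A value below background gave a lower bound against the lowest detected signal of each array. Intensities have no counting error, and the number of arrays limits the precision. Same-numbered legs deviated together in A/J-MyD88 deficient (correlations of 0.169 to 0.47) and A/J (0.137 to 0.435), and not in A/JOlaHsd (-0.126 and -0.105). Differently numbered legs gave -0.305 to 0.0877 in A/J-MyD88 deficient and -0.492 to 0.168 in A/J, where the ranges overlapped. The 2 ssRNA arrays of A/JOlaHsd deviate from their mean by opposite amounts, so their values are not independent. The numbers were taken to pair the legs in A/J-MyD88 deficient and A/J. The main fit did not use this pairing and took opposite legs as independent arrays. The replicate number entered as a block only in an alternative. Array values are given for members called in the A/J response and for the largest difference in each other comparison, and up to 4 called genes are named from each other list, besides Pola2 and Npat. The members and lists were chosen with earlier results of these data known. Alternatives changed the background correction, normalization, detection limit, probes, arrays and block. Promoter letters were searched with Python 3.11.15, and figures drawn with matplotlib 3.10.9.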

Additional observations from a re-analysis of the deposited data

Results flagged for a closer look

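The A/J-MyD88 deficient response minus the A/J response differed from 0 in 11 histone genes by limma, beside 10.2% of all genes tested. The log2 difference was -3.65 in H2ac12, -3.63 in H2ac15, -3.16 in H2ac22, -3.10 in H2ac24, -3.02 in H2ac7, -2.10 in H2ac11, -1.48 in H2ac20, -1.10 in H2ac13, -1.03 in H2ac10 and -0.96 in H3c13, with adjusted p between 0.000314 and 0.0161. It was 0.62 in H2ac18 (adjusted p = 0.0473). The value of H2ac11 is no exact size, since it was above background on no A/J saline array. That of H2ac20 is from the probe that stood for the gene, and its second probe was not called in the A/J response. The A/J-MyD88 deficient responses of these genes ran between -0.65 and 0.08, and A/J-MyD88 deficient saline legs were called higher than A/J saline legs in 8 of the 9 H2A genes that were lower here.

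The A/J response minus the A/JOlaHsd response differed from 0 in 9 histone genes, beside 7.57% of all genes tested. The log2 difference was 2.68 in H2ac12, 2.47 in H2ac15, 2.12 in H2ac22, 1.97 in H2ac24, 1.95 in H2ac7, 1.31 in H2ac11, 0.82 in H3c1, -0.79 in H2ac18 and -1.07 in H4c11, with adjusted p between 0.00759 and 0.0351. The values of H2ac11 and H3c1 are not measured sizes, since H2ac11 was above background on no array of A/J saline and of both A/JOlaHsd groups, and H3c1 on neither A/JOlaHsd ssRNA array. Only 2 ssRNA arrays of A/JOlaHsd entered it.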

How the results depend on the processing

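With all 18 arrays, the one without signal included, the counts of called histone genes were 5 in the A/J response in place of 12, 4 in place of 11 for A/J-MyD88 deficient minus A/J, 0 in place of 9 for A/J minus A/JOlaHsd, 0 in place of 13 for A/J against A/JOlaHsd saline, and 2 in place of 8 and 0 in place of 4 for saline and ssRNA legs of A/J-MyD88 deficient against A/J. With only the arrays compared, they were 4 for A/J minus A/JOlaHsd and 8 for A/J against A/JOlaHsd saline. With median centring they were 33 for A/J against A/JOlaHsd saline, where 7723 of all genes were higher and 78 lower, and 9 for A/J-MyD88 deficient against A/J ssRNA legs. The single A/JOlaHsd call became 0 with no background correction, median centring, 18 arrays, only the arrays compared, the replicate block and the authors' values, and 2 with every probe tested. Median centring split all A/J calls into 2486 higher and 345 lower genes, in place of 1394 and 1124, and moved the median of all genes to 0.10 there, -0.10 in A/JOlaHsd, -0.14 for A/J-MyD88 deficient minus A/J, 0.23 for A/J minus A/JOlaHsd and -0.10 for A/J-MyD88 deficient against A/J ssRNA legs. The cause of these changes was not tested.

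Leaving out single arrays gave 12 to 16 called genes in A/J, 0 in A/J-MyD88 deficient, 0 to 2 in A/JOlaHsd, 9 to 11 for A/J-MyD88 deficient minus A/J, 2 to 12 for A/J minus A/JOlaHsd, 9 to 13 for A/J against A/JOlaHsd saline, and 6 to 8 and 1 to 4 for saline and ssRNA legs of A/J-MyD88 deficient against A/J. With 18 arrays, H2ac18 and H4c11 turned to 0.12 and 0.30 for A/J minus A/JOlaHsd (adjusted p = 0.919 and 0.867). With median centring, H2ac12, H3c4 and H3c6 turned to 0.98, 0.80 and 0.50 for A/J against A/JOlaHsd saline (adjusted p = 0.00832, 0.00131 and 0.0257). The 58 gene results called in the main fit, over all comparisons, had 953 values under alternatives. Of these values, 784 kept direction and call, 164 were no longer called and 5 were reversed. Only 11 of the 58 results kept their call under every alternative, the fit with the array without signal included. In the A/J response, the calls of H2ac7, H2ac10, H2ac13, H2ac20, H3c13 and H4c11 were lost in that fit alone. That of H2ac18 was lost there and with median centring. The replicate block lost the calls of H3c1 in A/JOlaHsd (adjusted p = 0.0624), H2ac18 for A/J-MyD88 deficient minus A/J (0.0526), H2ac11 for A/J minus A/JOlaHsd (0.0546) and H2ac12 for A/J against A/JOlaHsd saline (0.0514). It added that of H3c13 for A/J minus A/JOlaHsd (0.0482, in place of 0.0535) and changed no other call among the 39 genes.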
